A study of Mus musculus with 27 samples.

Results

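Gastric organoids labelled Gpx4 knockout were compared with wild-type organoids at passage 15, the last passage of the series. The comparison rests on 6 of the 27 samples, chosen by their labels, with 3 libraries in each group. The knockout organoids grew from Mist1+ cells of Gpx4 F/F;Mist1Cre/ERT2;RFP-LSL mice and the wild-type organoids from Mist1+ cells of Mist1Cre/ERT2;RFP-LSL mice, so both groups carry the Mist1-driven Cre and the Cre-dependent red fluorescent reporter. RFP+ cells were sorted from dissociated stomachs of adult mice, grown in Matrigel in proliferating medium and passaged. The Cre is an ERT2 fusion, which acts after tamoxifen. The labels used here give neither the tamoxifen schedule nor the number of mice or cultures behind each genotype. P-values therefore measure the spread between libraries, which may be technical. The genotypes come from different mice, so a difference between the organoid lines and an effect of Gpx4 loss cannot be told apart.

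Gpx4 encodes a selenoenzyme that reduces phospholipid hydroperoxides in membranes with glutathione as the electron donor. Its loss makes many cell types prone to ferroptosis, an iron-dependent death driven by lipid peroxidation, unless other systems such as the FSP1 (Aifm2) coenzyme Q pathway take over. Bhlha15 encodes Mist1, a regulator of secretory cell architecture that marks zymogenic chief cells and some isthmus cells in the gastric corpus. The surface of the stomach is lined by pit cells that secrete gastrokines, trefoil peptides and the mucin Muc5ac.

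Levels below are CPM, counts scaled to the library total with TMM factors, given for replicates 1, 2 and 3 in that order. Rose and fell are used for genes whose adjusted p was under 0.05 in edgeR's quasi-likelihood test of the 6 libraries, with Benjamini-Hochberg adjustment over all 13875 genes tested. Log2 fold changes are knockout against wild type.

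The 6 libraries held 14076706 to 17097550 counts in genes. The 3 knockout libraries were close to each other, with a biological coefficient of variation of 1.88%, whereas the wild-type libraries had one of 20.8%. The chi-square per degree of freedom was 1.57 to 1.62 between knockout libraries and 15.7 to 72 between wild-type libraries, where 1 is pure counting noise. Wild-type replicates 1 and 3 also leaned on gene length. Genes with under 1000 exonic bases had a median log2 difference from the knockout mean of 0.78 in wild-type replicate 1 and 0.30 in replicate 3, against 0.00 in replicate 2. For genes of 8000 bases and more the differences were -0.57, -0.25 and 0.00. The counts for gene groups below are therefore given beside the comparison with wild-type replicate 2 alone, in which the spread comes from the other groups and the lone library is assumed to vary like them. That comparison reuses these libraries and is a check, not independent support.

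**Figure D1:**
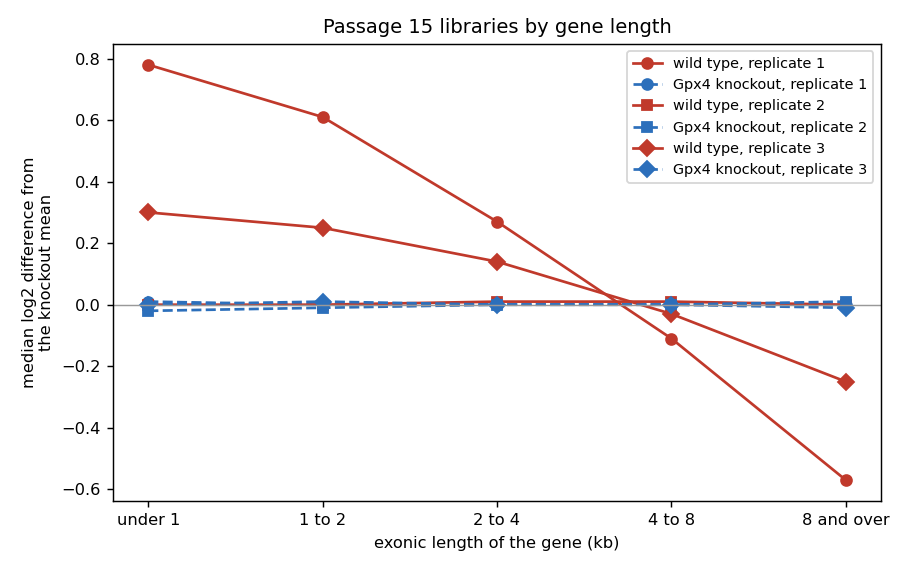
Median log2 difference from the mean of the knockout libraries (vertical axis) for genes in 5 bins of exonic length in kilobases (horizontal axis), with 1 line for each passage 15 library. Wild-type replicate 1 falls from 0.78 in the shortest bin to -0.57 in the longest and replicate 3 from 0.30 to -0.25, while wild-type replicate 2 and the knockout libraries lie along 0.

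The label gives gastric epithelium. All 10 epithelial markers passed the filter on low counts, with a summed level of 7599 to 7627 CPM in knockout and 9209 to 12841 CPM in wild type. Several lists for other cell types were near 0. The 10 fibroblast markers summed to at most 4.23 CPM, the 8 endothelial markers to at most 2.09 CPM and the 10 enteroendocrine markers to at most 1.37 CPM. The 10 immune cell genes summed to 181 to 185 CPM in knockout and 144 to 218 CPM in wild type, most of it Cd14, a lipopolysaccharide co-receptor, at 178, 179.5 and 181 CPM and 205, 136 and 161 CPM. Cd68, a macrophage lysosomal protein, fell, at 2.85, 3.01 and 2.93 CPM against 10.1, 7.19 and 6.71 CPM, while Ptprc, the pan-leukocyte antigen, was at most 0.575 CPM and Adgre1 and Kit had 0 counts. The part of immune cells in these results was not tested. The chief cell list summed to 662 to 672 CPM in knockout and 361 to 401 CPM in wild type. Most of this sum was Xbp1, a transcription factor of secretory cells in general, whose levels are given below. The parietal cell list summed to 934 to 967 CPM in knockout and 785 to 833 CPM in wild type. Some defining genes of both lists were at or near 0. The chief cell enzyme genes Pga5, Lipf and Chia1 had 0 counts in all 6 libraries. Cblif, which encodes gastric intrinsic factor, was at 0, 0 and 0.115 CPM in knockout and 0 in wild type. Atp4b, a subunit of the acid pump of parietal cells, was at most 0.0575 CPM. Atp4a, another subunit of that pump, was high enough to test and gave no call (log2 fold change -0.17, adjusted p = 0.566). Of 7 parietal cell genes tested, 2 rose, Kcnj15 and Clic6, and 0 fell (median 0.39, and 0.19 against replicate 2 alone).

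Gpx4 (ENSMUSG00000075706, chromosome 10, 80047166 to 80056439, plus strand, GRCm38) was still transcribed in the knockout-labelled libraries. Its level was 86.8, 83.1 and 87.8 CPM in knockout and 195, 104 and 127 CPM in wild type. The groups did not overlap, but most of the distance came from wild-type replicate 1. The log2 fold change was -0.72 (SE 0.22) with an adjusted p of 0.0564, which misses the threshold. Against wild-type replicate 2 alone it was -0.28 (adjusted p = 8.32e-06), close to the -0.29 measured at passage 10 and the -0.37 measured at passage 5. The tests of a difference in effect between passage 15 and passages 10 and 5 gave adjusted p-values of 0.174 and 0.245. Counts cover the whole gene, so they do not tell whether the floxed exons were lost, and the label was not checked at that level.

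Bhlha15, the gene of Mist1 (ENSMUSG00000052271, chromosome 5, 144190286 to 144194441), rose. It was at 11, 11.1 and 11.3 CPM in knockout and at 3.02, 2.06 and 2.89 CPM in wild type, a log2 fold change of 2.07 (SE 0.17, adjusted p = 0.000197). All knockout libraries lay above all wild-type libraries. The wild-type level at passage 15 was below every one of the 15 other organoid libraries, whose group means were 5.5 to 10.4 CPM. The knockout level was within their range. Among those libraries, Mist1- organoids were at 12.8, 8.61 and 9.76 CPM. Wild type at passage 5 was lower, at 5.02, 6.21 and 5.28 CPM, so the transcript did not follow the Mist1 label there.

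**Figure D2:**
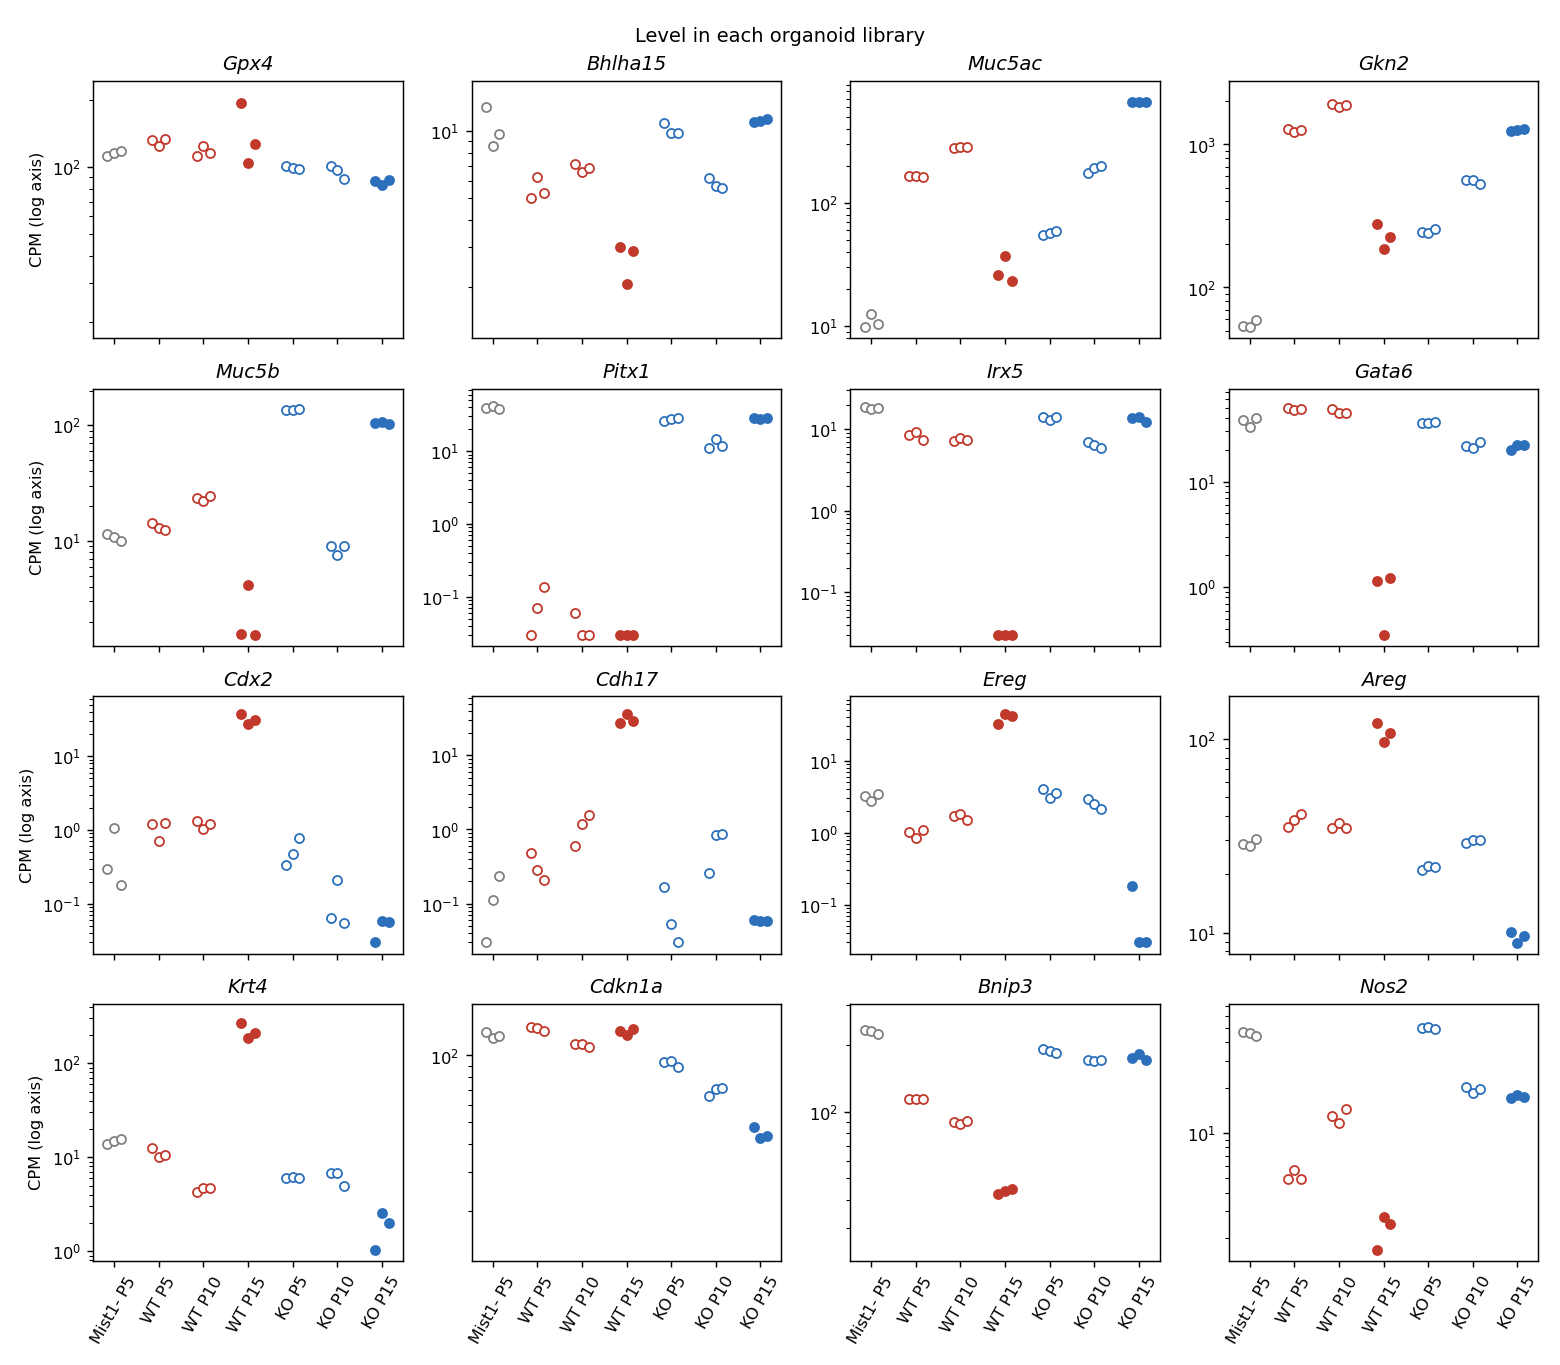
CPM on a log axis (vertical) of 16 genes in each of the 21 organoid libraries, in 7 groups of 3 (horizontal): Mist1- at passage 5 in grey, wild type in red and Gpx4 knockout in blue, with passage 15 filled and libraries at 0 counts drawn at 0.03 CPM. Each axis has its own range. Irx5 and Gata6 are low only in wild type at passage 15, Cdx2, Cdh17, Ereg and Krt4 are highest there, and Pitx1 is near 0 in wild type at all 3 passages.

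Across all genes, 2735 of 13875 (19.7%) were called, 1339 higher in knockout (9.65%) and 1396 lower (10.1%). The shares of 9.65% and 10.1% are the background for each count of genes that rose or fell in a list below. At least a 2-fold change was seen for 604 of the higher and 550 of the lower genes. All 2735 had libraries that did not overlap between groups, as did 6602 of all genes tested (47.6%). Against wild-type replicate 2 alone, 5548 of 16073 genes (34.5%) were called. Of the 2735 called genes, 2533 (92.6%) were called in the same direction there, none was opposite among the 2734 tested, and 1 (Tex19.2) was not tested. With an offset that removes each library's trend on gene length, 28.9% of genes were called, among them 2539 of the 2735 in the same direction. Leaving out wild-type replicate 3 ended the calls of some genes named below, Aifm2, Scd2, Ptgs2, Sat1, Pgc, Lgr5, Tnfrsf19, Erbb3, Ccn1, Mcm5, Mcm7, Itln1, Rps7, Dusp13, Cpsf4l, Ttc16, Mnx1 and S100a4, with adjusted p of 0.0501 to 0.144.

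**Figure D3:**
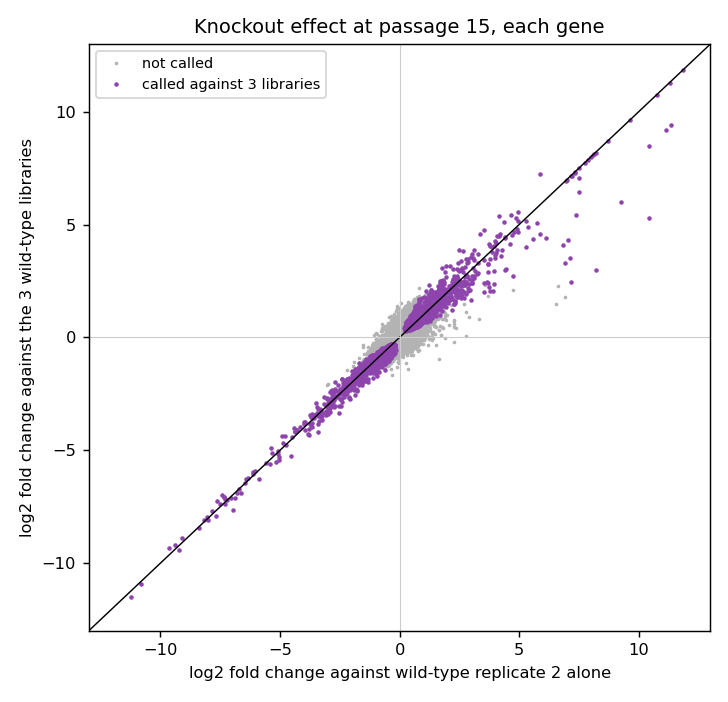
Log2 fold change of knockout against the 3 wild-type libraries (vertical) and against wild-type replicate 2 alone (horizontal) for each of 13874 genes, with genes called against the 3 libraries in purple and the line of equality in black. All called genes lie in the lower left or the upper right, with the same sign on both axes.

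Levels at passages 5 and 10 show which group had a level not seen elsewhere in the series. Among the called genes, the 3 wild-type passage 15 libraries lay outside the range of the 15 other organoid libraries for 1251 (45.7%, against 16.0% of all genes tested). The knockout libraries did so for 566 (20.7%, against 9.05%). Both did for 156 genes and neither for 1074. Whether the organoids changed during culture or the libraries differ for another reason was not tested.

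The highest fold changes belonged to genes that were silent in wild type. Pitx1, a homeodomain factor of foregut and limb development, was at 28.5, 27.3 and 28.7 CPM in knockout and at 0 counts in all 3 wild-type libraries, at least 442-fold higher when wild type is set to 3 counts in all. This was a difference between the lines at every passage. Pitx1 was at 12.5 and 0.02 CPM at passage 10, at 27.2 and 0.0692 CPM at passage 5 in knockout and wild type, and at 39.7 CPM in Mist1- organoids. Smoc1, a matricellular BMP modulator, had a similar course. It was at 10.7, 11.9 and 9.6 CPM in knockout against 0, 0.177 and 0 CPM in wild type (ratio 169, 95% counting interval 57.5 to 822, 3 wild-type counts), and group means of 16.7 and 1.41 CPM at passage 10.

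The Iroquois factors behaved differently from Pitx1. Irx5 was at 13.5, 13.9 and 12.3 CPM in knockout and at 0 counts in wild type (at least 208-fold higher), but at passage 10 it had been at 6.41 CPM in knockout and 7.39 CPM in wild type. Irx2 was at 5.52, 6.43 and 5.98 CPM against 0 counts (at least 94-fold higher), after 2.31 and 2.08 CPM at passage 10. In both genes the knockout level lay within the range of the other libraries and the wild-type level below it. Pxdn, which encodes peroxidasin, an enzyme that cross-links collagen IV, was at 19.5, 18.2 and 19.3 CPM in knockout and at 0 counts in wild type (at least 298-fold higher).

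Of the other genes among the 12 highest, 5 had 0 counts in wild type and lower levels in knockout. Cldn14, a tight junction claudin, was at least 48.8-fold higher, Lpar5, a lysophosphatidic acid receptor, at least 34.7-fold, Dact2, a modulator of Wnt and TGF-beta signalling, at least 32.2-fold, Actn2, a sarcomeric actinin, at least 27.3-fold and Slc2a12, a glucose transporter, at least 17.2-fold. Slc22a29, an organic anion transporter gene, had 1 wild-type count (ratio 929, 95% counting interval 166 to 36721), and so did Lipo3, a lipase gene (ratio 481, interval 85.9 to 19034). Both sit in clusters of near-identical genes, between which reads may have been split.

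Several intestinal genes were among the 12 lowest. Cdx2, the homeodomain factor that specifies intestinal epithelium, had 2 counts in the knockout libraries together and was at 37.7, 27.6 and 30.7 CPM in wild type (ratio 809, 95% counting interval 224 to 6687). Cdh17, the liver-intestine cadherin, was at 0.0607, 0.058 and 0.0575 CPM in knockout and 27.1, 36.5 and 29.1 CPM in wild type (ratio 532, interval 182 to 2582). Isx, an intestinal homeobox gene, had 0 knockout counts and 1.8, 1.94 and 2.52 CPM in wild type (at least 35.8-fold lower). Cdhr5, a protocadherin of the brush border, was at 0.0607, 0.116 and 0.0575 CPM against 32.8, 28.3 and 28.8 CPM. Upk1b, a uroplakin gene that is no member of the intestinal list, had 0 knockout counts and 15.9, 13.4 and 14.8 CPM in wild type (at least 249.6-fold lower).

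These genes were low in wild type before passage 15. Mean Cdx2 was 1.19 CPM at passage 10 and 1.05 CPM at passage 5 in wild type, and mean Cdh17 was 1.12 and 0.321 CPM. For all 5 genes the 3 wild-type passage 15 libraries lay above the other 15 organoid libraries.

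Ndn, an imprinted gene of the Prader-Willi region, had 0 knockout counts and 26.3, 17.9 and 23.2 CPM in wild type (at least 378-fold lower). Il5ra, the interleukin 5 receptor alpha chain, was at 0.121, 0.174 and 0.0575 CPM in knockout and 64.5, 99.8 and 80.7 CPM in wild type, a log2 fold change of -9.35 (SE 0.32, adjusted p = 1.17e-05). Mgat4c, a glycosyltransferase gene, was at 1.4, 1.04 and 1.21 CPM and 170.3, 220.4 and 227 CPM. Bmp3 had 1 count in knockout against 7.48, 7.72 and 7.02 CPM in wild type and 0 counts in every library of passages 5 and 10. Trim31, an E3 ubiquitin ligase gene, and Oas1f, of the interferon-induced Oas1 cluster of similar genes, had 0 knockout counts and were at least 32.6-fold and 30.7-fold lower. The wild-type passage 15 libraries were above the 15 others for all 6 genes.

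Many factors on a list of gastric identity were higher in knockout. Of 16 tested, 10 rose (9.65% of all genes) and the other 6 did not pass. The median log2 fold change was 1.08 beside -0.01 for all genes tested. The 10 include Pitx1, Irx5 and Irx2, described above, and Spdef, which is also on the mucin list. The list was chosen with earlier results of these data known, so its count is a description and no independent support. Against replicate 2 alone 12 of 17 were higher and 1 lower (17.0% and 17.6% of all genes), with a median of 0.61. Gata6, a foregut endoderm factor, was at 19.8, 22 and 22 CPM in knockout and 1.15, 0.354 and 1.23 CPM in wild type, a log2 fold change of 4.56 (SE 0.30, adjusted p = 7.98e-05, and 5.88 against replicate 2 alone). Pdx1, a factor of antrum, duodenum and pancreas, was at 14.8, 14.1 and 15.3 CPM and 1.94, 2.24 and 2.71 CPM. The knockout libraries lay above the wild-type libraries in both genes. At passage 10 both genes had stood the other way, with group means in knockout and wild type of 22.1 and 46.1 CPM for Gata6 and of 14.3 and 29.6 CPM for Pdx1. The knockout effect on 11 of the 16 factors was higher at passage 15 than at passage 10 (17.9% of all genes). Wild type at passage 15 lay outside the other 15 libraries for 7 and knockout for 3 (16.0% and 9.05% of all genes).

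Intestinal genes fell in part. Of 13 tested, 8 fell and 2 rose (median -1.45), and against replicate 2 alone 8 of 14 were lower and 3 higher (median -1.01). Besides Cdx2 and Cdh17, Hnf4g, a nuclear receptor of enterocytes, was at 2.18, 2.84 and 1.84 CPM in knockout and 20.1, 27.3 and 26.4 CPM in wild type. Tff3, the goblet cell trefoil peptide, was at 0.789, 0.87 and 0.575 CPM and 20.9, 7.9 and 13.3 CPM (log2 fold change -4.21, and -3.40 against replicate 2 alone). Vil1, encoding the microvillus protein villin, which gastric epithelium also expresses, rose from 196, 200.3 and 204 CPM to 325, 325 and 322 CPM.

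Most pit cell genes rose, against their direction at the earlier passages. Of 13 tested, 10 rose and the other 3 did not pass (median 1.56), while 12 were higher against replicate 2 alone (median 1.19). Muc5ac, the surface mucin, was at 651, 656 and 656 CPM in knockout and 26, 36.9 and 23.2 CPM in wild type, a log2 fold change of 4.51 (SE 0.20, adjusted p = 1.93e-05, and 4.14 against replicate 2 alone). Its knockout level was above all 15 other libraries, and its wild-type level was within their range. Gkn2, a gastrokine, was at 1249, 1259.8 and 1287 CPM against 277, 185 and 227 CPM. Gkn1 was at 774, 780.5 and 786 CPM against 249, 136 and 171 CPM. Mucl3, a mucin-like gene, was at 153, 148 and 148 CPM against 28.3, 26.7 and 29.9 CPM.

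All 13 pit cell genes were lower in knockout at passage 10 (median -1.32, where 27.1% of all genes were lower) and 12 were lower at passage 5 (median -1.18, where 25.7% were). Mean Gkn2 was 553 CPM in knockout and 1881 CPM in wild type at passage 10, and 247 and 1258 CPM at passage 5. The test of the difference in effect was called, with passage 15 higher, for all 13 genes against either earlier passage (17.9% and 13.9% of all genes). The summed level of the list in knockout was 3166 to 3201 CPM at passage 5, 4138 to 4371 CPM at passage 10 and 6659 to 6720.3 CPM at passage 15. In wild type the sums were 7684 to 7889, 9699 to 9978 and 2278 to 2992 CPM.

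The list of mucin and mucus-processing genes overlaps with the pit cell list, since Muc5ac, Tff1 and Galnt6 rose in both. Of 19 tested, 15 rose and 1 fell (median 1.18), and 16 of 21 were higher and 1 lower against replicate 2 alone (median 1.02). Muc5b, a second gel-forming mucin, was at 104, 107 and 102 CPM in knockout and 1.58, 4.12 and 1.54 CPM in wild type, a log2 fold change of 5.41 (SE 0.33, adjusted p = 6.41e-05, and 4.66 against replicate 2 alone). Its course was uneven, with means in knockout of 136 CPM at passage 5 and 8.53 CPM at passage 10. Creb3l1, a membrane-bound factor that equips cells for secretion, was at 90.2, 91.6 and 89.7 CPM against 19.1, 20.3 and 19.4 CPM. Spdef, a factor of mucus-secreting cells, was at 25.5, 26.6 and 26.6 CPM against 7.7, 5.66 and 4.56 CPM. The gene that fell was Tff3. At passage 10, 4 of 20 were higher in knockout and 13 lower (27.0% and 27.1% of all genes). At passage 5 the list leaned the other way, with 12 of 20 higher and 5 lower (25.0% and 25.7% of all genes).

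Lists for other gastric cells were less uniform. Of 5 chief cell genes tested, 4 rose (Bhlha15, Rab3d, Xbp1 and Pgc, median 0.74, and 4 higher with a median of 0.85 against replicate 2 alone), of which Pgc, the pepsinogen C gene, was at 11.8, 9.8 and 14.4 CPM in knockout and 7.77, 7.95 and 7.51 CPM in wild type. The other 6 of the 11 chief cell genes in the table were too low to test. Of 12 mucous neck genes 5 rose and 4 fell (median 0.06), and 7 of 13 were higher and 5 lower against replicate 2 alone (median 0.26). Dmbt1, a secreted scavenger protein, was at 51.6, 55.7 and 52.4 CPM in knockout and 1.65, 2.89 and 2.09 CPM in wild type, and Tff2, the neck cell trefoil peptide, was at 98.1, 94.7 and 93.2 CPM against 39.2, 17 and 22.7 CPM (log2 fold change 1.87, and 2.49 against replicate 2 alone). Among stem cell and isthmus genes, 5 of 12 rose, and 1, Tnfrsf19, fell (median 0.37), while 8 were higher and 2 lower against replicate 2 alone (median 0.24). Lgr5, a Wnt-pathway receptor of stem cells, was at 36.4, 34.3 and 37.4 CPM against 12.9, 23.4 and 19.2 CPM. Of 5 tuft cell genes 1 rose, Avil, at 164, 169.9 and 159.7 CPM against 64.6, 51.9 and 50.4 CPM, and 1, Ptgs1, fell. The tuft cell median was -0.36 and turned to 0.21 against replicate 2 alone.

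Keratins and squamous genes were lower in knockout. Of 8 keratins tested, 7 fell (median -0.81), and 10 of 11 were lower against replicate 2 alone (median -0.69). Krt4, a keratin of stratified epithelium, was at 1.03, 2.55 and 2.01 CPM in knockout and 269, 187 and 211 CPM in wild type, a log2 fold change of -6.88 (SE 0.30, adjusted p = 1.93e-05). Its group means at passages 5 and 10, Mist1- organoids included, were 4.61 to 14.9 CPM. For Krt4, wild type at passage 15 lay above all 15 other libraries. Over the 8 keratins tested, wild type lay outside those libraries for 1 and knockout for 6 (16.0% and 9.05% of all genes). Krt19, a simple epithelial keratin, was at 1318, 1294 and 1304 CPM against 4279, 2409 and 2897 CPM, a log2 fold change of -1.29 that was -0.89 against replicate 2 alone. Krt7 was at 798, 792 and 801 CPM against 2615, 1617 and 1935 CPM. Wild-type replicate 1 was the highest for both.

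All 4 squamous genes tested fell (median -1.77): Krt4, Ivl, Sprr1a and Sfn. Against replicate 2 alone 6 of 7 were lower (median -2.18). Ivl, encoding the envelope protein involucrin, was at 3.76, 4.35 and 3.22 CPM in knockout and 23.2, 17.1 and 19.1 CPM in wild type. The list of 14 genes summed to 49.2 to 51.8 CPM in knockout and 275 to 408 CPM in wild type. Trp63, the master factor of basal squamous cells, had at most 0.0575 CPM in any of the 6 libraries, and Krt5 was at 0 in knockout and at most 0.53 CPM in wild type. Among claudins, Cldn4 fell from 118, 94.6 and 112 CPM to 21.5, 20.9 and 24.5 CPM, and 4 of 8 fell while 1, Cldn8, rose (5 of 9 lower and 1 higher against replicate 2 alone). Col4a1 and Col4a2, the collagen IV chains of basement membrane, had log2 fold changes of -5.12 and -5.95. Col4a1 was at 0.668, 1.57 and 0.69 CPM in knockout and 27.8, 39.4 and 35.5 CPM in wild type.

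Several ligands of the EGF receptor family fell. Of 11 ligand and receptor genes tested, 5 fell and 2 rose (median -0.16), and 8 of 12 were lower and 1 higher against replicate 2 alone (median -0.47). Ereg, encoding epiregulin, was at 0.182, 0 and 0 CPM in knockout and 31.7, 44.9 and 41.6 CPM in wild type (ratio 679, 95% counting interval 232 to 3296, 3 knockout counts). Areg, encoding amphiregulin, was at 10.1, 8.87 and 9.65 CPM against 121, 96.5 and 107 CPM, a log2 fold change of -3.50 (SE 0.12, adjusted p = 1.17e-05). Knockout was below and wild type above all 15 other libraries for both. Erbb3, a receptor, was higher, at 269, 280.2 and 276 CPM against 155, 223 and 179 CPM (log2 fold change 0.57, adjusted p = 0.03). Nrg1, encoding the ligand neuregulin 1, also rose, at 8.13, 8.06 and 6.95 CPM against 3.74, 5.66 and 4.62 CPM (adjusted p = 0.0315, and 0.0683 against replicate 2 alone).

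YAP targets and genes of regenerating epithelium overlap with these ligands. Of 15 tested, 9 fell and 1 rose (median -0.48), and 12 of 16 were lower against replicate 2 alone (median -0.65). Ly6a, the Sca-1 surface antigen, was at 136, 131 and 135 CPM in knockout and 1045, 740.5 and 882 CPM in wild type. Ccn2, encoding connective tissue growth factor, was at 88.7, 93 and 87.2 CPM against 261, 226 and 243 CPM. The gene that rose was Ccn1, at 68.6, 69.9 and 75.3 CPM against 58.3, 53 and 59.7 CPM. Knockout at passage 15 lay outside the 15 other libraries for 10 of these 15 genes and wild type for 3 (9.05% and 16.0% of all genes). At passage 10, 8 of the 15 were higher in knockout and 4 lower (27.0% and 27.1% of all genes). At passage 5, 5 were higher and 9 lower (25.0% and 25.7% of all genes).

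Targets of p53 were lower in knockout. Of 23 tested, 17 fell and the other 6 did not pass (median -1.04), and against replicate 2 alone 19 were lower (median -1.03). Cdkn1a, the cell cycle inhibitor p21, was at 47.8, 42.7 and 43.5 CPM in knockout and 129, 123 and 132 CPM in wild type, a log2 fold change of -1.52 (SE 0.09, adjusted p = 5.50e-05). Plk2, a polo-like kinase, was at 77.8, 81.6 and 79.7 CPM against 216, 232 and 219.6 CPM, after higher levels in knockout at passage 10 (195 against 156 CPM). Gdf15, a stress-induced secreted factor, was at 2.49, 2.38 and 3.45 CPM against 16.1, 13.6 and 15.9 CPM. In all 3 genes the knockout libraries lay below the range of the 15 others.

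The list had also been lower in knockout at the earlier passages, with medians nearer 0. At passage 10, 18 of the 23 were lower in knockout and 2 higher (median -0.40, beside 27.1% and 27.0% of all genes). At passage 5, 17 were lower and 1 higher (median -0.44, beside 25.7% and 25.0% of all genes). The difference in effect was called, with passage 15 lower, for 12 genes against passage 10 and 13 against passage 5 (19.1% and 15.6% of all genes). The summed level of the list in knockout was 2356 to 2372 CPM at passage 5, 2143 to 2162 CPM at passage 10 and 1787 to 1790.0 CPM at passage 15, against 3476 to 3667 CPM in wild type at passage 15.

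Few proliferation genes were called at passage 15. Of 26 tested, 2 fell, Mcm5 and Mcm7, replication helicase subunits, and 24 did not pass (median -0.18), while 11 were lower and 4 higher against replicate 2 alone (median -0.09). Mcm5 was at 121, 114 and 117 CPM in knockout and 153, 139 and 145 CPM in wild type. At passages 10 and 5, 25 and 24 of the 26 had been higher in knockout (27.0% and 25.0% of all genes), with medians of 0.50 and 0.41. The knockout effect was lower at passage 15 for 21 genes against either passage (19.1% and 15.6% of all genes). The sums over the list at passage 15 were 4282 to 4336 CPM in knockout and 4214 to 4420.4 CPM in wild type. In wild type they had been 3303 to 3353 CPM at passage 10.

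Most hypoxia-responsive and glycolytic genes rose. Of 28 tested, 18 rose and the other 10 did not pass (median 0.57), and 27 were higher against replicate 2 alone (median 0.72). These genes are activated by the hypoxia-inducible factors, which bind elements whose core is often ACGTG, the only form searched here. To show how such a core sits in these promoters, the 250 bases before the RefSeq start (GRCm38.p6) follow for 3 members that rose, picked after their values were seen, in the direction of transcription, with matches on either strand in capitals. They are Bnip3 (chr7:138909507-138909756, minus strand), Slc16a3 (chr11:120948817-120949066, plus strand) and Egln3 (chr12:54203875-54204124, minus strand). In Bnip3 the matches on the opposite strands overlap.
Bnip3: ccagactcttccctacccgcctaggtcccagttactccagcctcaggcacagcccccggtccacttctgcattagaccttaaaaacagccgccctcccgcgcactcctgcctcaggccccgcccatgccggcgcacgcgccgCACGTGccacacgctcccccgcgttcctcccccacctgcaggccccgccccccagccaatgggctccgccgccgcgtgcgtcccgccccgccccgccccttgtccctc
Slc16a3: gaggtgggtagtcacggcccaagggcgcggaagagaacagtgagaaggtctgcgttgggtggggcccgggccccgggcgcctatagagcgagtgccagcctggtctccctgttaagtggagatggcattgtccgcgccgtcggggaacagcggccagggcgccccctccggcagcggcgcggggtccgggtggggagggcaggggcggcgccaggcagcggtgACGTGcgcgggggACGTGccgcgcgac
Egln3: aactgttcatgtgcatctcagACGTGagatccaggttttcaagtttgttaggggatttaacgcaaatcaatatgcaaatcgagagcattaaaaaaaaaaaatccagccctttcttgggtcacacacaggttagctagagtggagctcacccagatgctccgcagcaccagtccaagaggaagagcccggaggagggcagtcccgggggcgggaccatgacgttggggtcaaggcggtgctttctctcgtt

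A match to ACGTG lay in this window for 19 of the 27 tested members that had one (70.4%) and for 12 of the 17 that rose (70.6%), against 18.5% of 27025 genes. A match is a description of these letters and not a binding site, and the share was about the same among members that rose and all those tested. The windows were too short to hold distal elements.

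Bnip3, a mitophagy receptor, was at 174, 181 and 170.1 CPM in knockout and 42.7, 43.7 and 45 CPM in wild type, a log2 fold change of 2.00 (SE 0.09, adjusted p = 1.68e-05). Slc16a3, a lactate exporter, was at 63.2, 63.3 and 63.2 CPM against 15.3, 11.4 and 11.2 CPM. Egln3, an oxygen-sensing prolyl hydroxylase, was at 156, 166 and 167 CPM against 85.3, 80.6 and 83.1 CPM. In these 3 genes the knockout level was within the range of the other organoid libraries and the wild-type level below it. The same held for Vegfa, the angiogenic growth factor, at 134, 129.6 and 129.5 CPM against 51.3, 57.6 and 60.6 CPM. Wild type at passage 15 lay outside the 15 other libraries for 17 of the 28 genes and knockout for 1 (16.0% and 9.05% of all genes). At passage 10, 22 genes were higher in knockout and 4 lower (median 0.43, beside 27.0% and 27.1% of all genes). At passage 5, 20 were higher and 7 lower (median 0.20, beside 25.0% and 25.7% of all genes).

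Genes of the unfolded protein response, which adapts the endoplasmic reticulum to its secretory load, moved by less. Of 21 tested, 10 rose and the other 11 did not pass (median 0.34), and 18 were higher against replicate 2 alone (median 0.39). Xbp1, a transcription factor of this response and of secretory cells, was at 413, 418 and 411 CPM in knockout and 259, 229 and 258 CPM in wild type (log2 fold change 0.74, SE 0.09, adjusted p = 0.00142). Dnajb9, a co-chaperone, was at 73.5, 70.9 and 69.8 CPM against 28.1, 37.8 and 40.6 CPM, and Dnajc3, another, was at 239, 236 and 237 CPM against 144, 168 and 159.5 CPM. The endoplasmic reticulum stress response element, searched on both strands of the same windows, matched in 7 of the 17 tested members with a window (41.2%), 2 of the 7 that rose and 0.13% of all genes.

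Secreted defence proteins and inflammatory genes were also higher. Of 14 defence genes tested, 10 rose and 1 fell (median 0.86), and 11 of 15 were higher against replicate 2 alone (median 0.97). Pigr, which carries polymeric immunoglobulin across epithelia, was at 6814, 6781 and 6826 CPM in knockout and 2370.0, 2535 and 2258 CPM in wild type, a log2 fold change of 1.51 (SE 0.10, adjusted p = 7.24e-05). Ltf, encoding lactoferrin, was at 1112, 1136 and 1127 CPM against 445, 363 and 382 CPM. Nos2, the inducible nitric oxide synthase, was at 17, 17.9 and 17.4 CPM against 1.65, 2.77 and 2.46 CPM. Itln1, an intelectin, fell, from 5.18, 4.3 and 4.31 CPM to 2.31, 2.26 and 3.1 CPM, with an adjusted p of 0.0842 under the length offset. Wild-type levels of Pigr, Ltf and Nos2 lay below the other 15 libraries, as did the knockout level of Ltf, and the summed level of the list was 9144 to 11979 CPM in knockout and wild type at passages 5 and 10 against 4326 to 4687 CPM in wild type at passage 15.

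Of 22 cytokine and NF-kB genes tested, 13 rose and 2 fell (median 0.55), and 15 of 24 were higher and 2 lower against replicate 2 alone (median 0.43). Cxcl5, a neutrophil chemokine, was at 3787, 3729 and 3766 CPM in knockout and 1754, 1487 and 1776 CPM in wild type. Cxcl2 and Cxcl3 rose by 1.45 and 1.54 on the log2 scale, and Nfkbia, the NF-kB inhibitor and target, was at 133, 133 and 133 CPM against 72.3, 64.6 and 72.3 CPM. Il33, an alarmin, fell, from 262, 294 and 289 CPM to 156, 169 and 162 CPM. Cxcl1, Cxcl2 and Cxcl3 are similar in sequence, so their values are uncertain relative to each other. Immediate early and heat shock genes went the other way. Of 18 tested, 9 fell (median -0.41, and 12 of 19 lower with a median of -0.25 against replicate 2 alone), such as Dusp1, a phosphatase induced by stress, at 17.3, 17.9 and 16.3 CPM against 38.1, 35.9 and 37.9 CPM.

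Antioxidant and ferroptosis genes showed mostly moderate differences. Of 5 glutathione peroxidase genes tested, 2 fell, and 3 of 6 were lower against replicate 2 alone. Gpx2, the gastrointestinal selenoperoxidase, was at 689.5, 686 and 687 CPM in knockout and 2425, 1429 and 1780.2 CPM in wild type, a log2 fold change of -1.45 (SE 0.19, adjusted p = 0.00199, and -1.06 against replicate 2 alone). Gpx8, a peroxidase of the endoplasmic reticulum, was at 3.64, 3.3 and 3.28 CPM against 36.4, 19.9 and 27.1 CPM. At passage 10 Gpx8 had been higher in knockout (9.44 against 1.61 CPM), and its wild-type level at passage 15 was above all 15 other libraries.

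Of 13 genes of cystine uptake and glutathione synthesis, 5 fell (Gclm, Gss, Gsr, Cbs and Slc3a2) and 8 did not pass (median -0.31), while 8 were lower and 1 higher against replicate 2 alone. Gclm, the modifier subunit of glutamate-cysteine ligase, was at 115, 119 and 112 CPM in knockout and 194, 194 and 196 CPM in wild type. Slc7a11, the cystine transporter, gave no call. It was at 289.5, 301 and 296 CPM against 246, 555 and 386 CPM, with the wild-type libraries on both sides of the knockout level. Of 28 NRF2 targets, 7 fell and 1 rose (median -0.33), and 18 were lower and 6 higher against replicate 2 alone (median -0.23). Hmox1, heme oxygenase, was at 16.2, 16.1 and 16.8 CPM against 41.4, 37 and 40.3 CPM. Nfe2l2, the NRF2 gene itself, was at 442, 451 and 443 CPM against 735, 699 and 726 CPM. Knockout was outside the other 15 libraries for 12 of the 28 and wild type for 4 (9.05% and 16.0% of all genes).

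Among 13 suppressors of ferroptosis that act without GPX4, 2 rose and 1 fell, beside 9.65% and 10.1% of all genes. The median was 0.08, and 0.14 against replicate 2 alone. Mboat2, a phospholipid-remodelling acyltransferase, was at 20.9, 21.5 and 19.1 CPM in knockout and 4.82, 5.42 and 5.66 CPM in wild type, a log2 fold change of 1.95 (SE 0.12, adjusted p = 5.79e-05), and it had been higher in knockout at passage 10 as well (24.8 against 9.81 CPM). Scd2, a fatty acid desaturase, was at 4331, 4344 and 4361 CPM against 2197, 3333 and 3099 CPM. Aifm2, the FSP1 gene, was lower, at 6.68, 5.68 and 6.32 CPM against 9.64, 8.19 and 8.8 CPM, with an adjusted p of 0.0357 that was 0.0865 against replicate 2 alone. Of 12 genes that make phospholipids prone to peroxidation, 1 rose and 0 fell, beside 9.65% and 10.1% of all genes. The gene that rose was the desaturase Fads1, at 77.8, 72.5 and 79.1 CPM against 39.4, 44.3 and 39.4 CPM. Against replicate 2 alone 6 of 13 were higher.

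Transcripts used as markers of a ferroptotic response did not rise together. Of 7 tested, 3 fell and 1 rose, beside 10.1% and 9.65% of all genes. The median was -0.42, and -0.91 against replicate 2 alone. Ptgs2, encoding cyclooxygenase 2, was at 6.31, 6.26 and 7.13 CPM in knockout and 10, 21.3 and 19.3 CPM in wild type, and it had been higher in knockout at passage 10 (28.6 against 10.1 CPM). Atf3, a stress-induced factor, was at 9.53, 10.9 and 10.3 CPM against 46.9, 42.5 and 40.9 CPM, and Hmox1 also fell. Sat1, a polyamine acetyltransferase, rose by 0.47 on the log2 scale.

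Of 16 iron-handling genes 3 rose and 3 fell, beside 9.65% and 10.1% of all genes. The median was 0.03, and -0.00 against replicate 2 alone. Cp, encoding the ferroxidase ceruloplasmin, was at 443, 446 and 437 CPM in knockout and 114, 127 and 115 CPM in wild type, 3.73-fold higher (adjusted p = 2.30e-05). It was also higher in knockout at passage 10 (219 against 55 CPM) and passage 5 (179 against 46.3 CPM). Heph, the membrane ferroxidase hephaestin of enterocytes, had 2 knockout counts against 5.32, 9.31 and 6.77 CPM (ratio 186, 95% counting interval 51 to 1539). Of 19 selenoprotein genes 1 rose and 2 fell, beside 9.65% and 10.1% of all genes. The gene that rose was Selenop, the secreted selenium carrier, at 201, 199 and 199 CPM against 61.1, 55.4 and 58.2 CPM. Against replicate 2 alone 6 of 20 were higher and 4 lower, and the median turned from -0.08 to 0.13.

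Antigen presentation genes were lower in part. Of 9 tested, 5 fell (median -0.71, and 6 of 12 lower and 2 higher against replicate 2 alone), among them the peptide transporter gene Tap1 at 7.28, 5.16 and 7.53 CPM in knockout and 21.6, 21.6 and 24 CPM in wild type. The 16 interferon-response genes tested gave 3 that rose and 3 that fell, beside 9.65% and 10.1% of all genes. Their median was -0.15, and -0.23 against replicate 2 alone. Among imprinted genes, Ndn fell and Peg3, a zinc finger gene, rose, from 1.8, 5.83 and 4.49 CPM to 18.8, 21.3 and 18.4 CPM. Of the 12 tested, 2 rose and 3 fell, and the median turned from 0.19 to -0.04 against replicate 2 alone.

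Housekeeping lists had few calls, and some of their values differed between the comparisons. Of 58 cytosolic ribosomal protein genes 1, Rps7, fell, and the median was -0.58, but it was -0.11 against replicate 2 alone, where 33 were lower, and -0.32 with the length offset, where 20 were. Their sum was 36661 to 67102 CPM in wild type and 33322 to 33677 CPM in knockout. For 27 nuclear genes of oxidative phosphorylation the median was -0.19 with 1 fallen gene, and against replicate 2 alone it turned to 0.13 with 15 higher. For the sterol synthesis genes, 1 of 22 fell, whereas 12 were higher and 5 lower against replicate 2 alone (median 0.10 and 0.08).

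Passages 5 and 10 were fitted on their own 6 libraries each, which share none with passage 15. At passage 10, 7551 of 13957 genes were called (54.1%) and at passage 5, 7035 of 13882 (50.7%). The 19.7% at passage 15 depended on how the wide wild-type spread was estimated, so these shares do not rank the passages by effect. Of the genes called at passage 15, 1781 were also called at passage 10 (65.1% of the passage 15 calls and 23.6% of the passage 10 calls), 807 in the same direction and 974 in the opposite one. With passage 5, 1761 were shared (64.4% and 25%), 1134 in the same direction and 627 opposite. The difference in effect was called for all 974 and all 627 opposite genes. Of 1358 genes called at all 3 passages, 679 had the same direction throughout (264 higher and 415 lower) and 533 went at passage 15 against a direction on which passages 5 and 10 agreed.

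**Figure D4:**
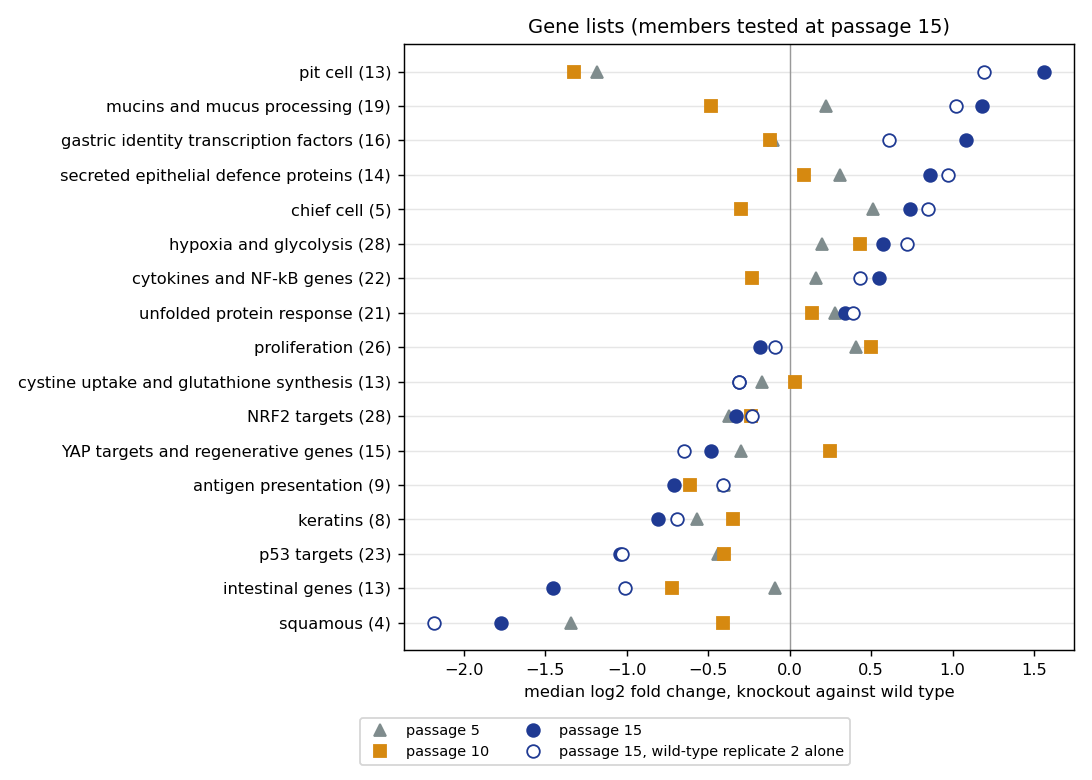
Median log2 fold change of knockout against wild type (horizontal axis) for 17 gene lists (vertical axis, members tested at passage 15 in parentheses) at passage 5, 10 and 15, and at passage 15 against wild-type replicate 2 alone. Pit cell genes stand at 1.56 at passage 15 but -1.32 and -1.18 at passages 10 and 5, while p53 targets are below 0 at each passage.

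The difference in knockout effect between passages was called for 5397 of 14580 genes against passage 10 (37.0%) and 4312 of 14597 against passage 5 (29.5%). On simulated data these interaction tests made a larger share of false calls than their threshold allows, so the counts are less firm than those within a passage. Besides genes named above, Enpp3, an ectonucleotide pyrophosphatase, stood out. It was at 43.6, 44.2 and 44 CPM in knockout and 0.863, 0.236 and 0.431 CPM in wild type at passage 15, after means of 12 and 124 CPM at passage 10. Its log2 fold change was 6.46, and 7.49 against replicate 2 alone. Pdpn, encoding podoplanin, was at 0.425, 0.058 and 0.172 CPM against 5.4, 3.18 and 4.43 CPM at passage 15, but at 8.33 and 0.206 CPM at passage 5.

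Some called genes did not pass, or in 1 case (Tex19.2) were not tested, against wild-type replicate 2 alone. Those with large fold changes included Dusp13, Ildr2 and Cpsf4l, which were higher in knockout, and Tex19.2, Ttc16, Mnx1 and S100a4, which were lower. S100a4, a calcium-binding protein, was at 0.728, 0.58 and 0.747 CPM in knockout and 2.81, 1.36 and 2.22 CPM in wild type (adjusted p = 0.0171, and 0.185 against replicate 2 alone). Mnx1, a homeobox factor, was at 0.364, 0.348 and 0.402 CPM against 1.58, 0.943 and 1.97 CPM (adjusted p = 0.0113, and 0.0803 against replicate 2 alone). These 7 genes had group means under 3 CPM.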

How the data were processed

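Bulk RNA-seq was read from 1 deposited table with 21 organoid libraries. The authors deposited raw counts per gene and FPKM. The deposited FPKM equalled count over length and library total within 0.006. Per the submitters' processing notes, cutadapt 1.9.1, HISAT2 2.2.1, HTSeq 0.6.1 and GRCm38.p5 were used. The strand setting was not given in the sources used here. The 6 samples of sorted cells were not analysed here.

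Libraries were grouped by their labels. Counts were tested with edgeR 4.0.16 in R 4.3.3 (TMM scaling, the filterByExpr defaults of 10 counts and 15 in total, robust quasi-likelihood F-test, Benjamini-Hochberg adjustment, threshold 0.05) on the 6 passage 15 libraries. Differences in effect between passages were tested as interactions over 12 libraries. Each SE is the log2 fold change over the square root of F. CPM values are scaled by TMM over the 21 libraries. A group at 0 counts was set to 3 counts over the group, and ratios from 1 to 3 counts carry exact 95% intervals that cover counting error only. The labels do not say that replicates came from separate cultures, so p-values may measure technical spread. Scripts were tested on simulated data. Sequences came from RefSeq, exonic gene lengths from the deposited data and coordinates from GENCODE M21. Of 52073 gene identifiers also in GENCODE M21, 1435 had identical coordinates there and in the deposited data.

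The members and gene lists were chosen with earlier results of these data known. The genes named are Gpx4 and Bhlha15, the 12 highest and 12 lowest protein-coding genes that were called with no overlap, a mean of at least 1 CPM in the higher group and the same call against replicate 2 alone and with the length offset, up to 4 members of each list with the smallest adjusted p plus the next in the other direction, the 4 highest and 4 lowest of each interaction, and the 4 in each direction with the largest fold change that were not called against replicate 2 alone. Some items of the rule and lists are not reported here. Other genes, such as Slc7a11, Slc3a2, Krt5, Trp63, Nrg1 and Cxcl1, were named after their values were seen. DESeq2 1.42.0 and limma 3.58.1 served as alternatives, beside other scalings, filters, fits and each replicate left out.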

Additional observations from a re-analysis of the deposited data

Results flagged for a closer look

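The knockout effect at passage 15 differed from that at passage 10 for 5397 genes and from that at passage 5 for 4312 genes, by the interaction test of edgeR (adjusted p under 0.05). On simulated data these tests made more false calls than that threshold allows. Values below are the effect at passage 15 minus that at the earlier passage on the log2 scale. Where a group is at 0 counts, such a fitted value depends on the prior count and is no bound.

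Against passage 10 the difference was 2.30 for Bhlha15, the Mist1 gene, 10.97 for Irx5, 9.45 for Irx2, 8.81 for Lpar5 and 9.82 for Enpp3. It was -10.73 for Ndn, -9.82 for Ereg, -9.67 for Isx and -9.04 for Synpr, a synaptic vesicle protein gene. Against passage 5 it was 1.15 for Bhlha15, 10.02 for Irx5, 9.46 for Lipo3, 8.64 for Actn2 and 8.54 for Zcchc3, a zinc finger gene that was not tested at passage 15. It was -8.44 for Cdx2, -7.07 for Il5ra, -11.07 for Ereg and -9.59 for Pdpn. The part of culture time, of passage 15 wild-type libraries that stand apart and of the knockout in these differences cannot be told apart.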

How the results depend on the processing

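The number of genes called at passage 15, 2735, depended on how the spread was estimated. It was 7396 with all 21 libraries in the fit, 5548 against wild-type replicate 2 alone, 9276 with limma voom and sample quality weights, and 898 in a test against a 1.5-fold change. Leaving out 1 library gave 1296 to 6521 genes: 6521 without wild-type replicate 2, 4261 without replicate 1, 1415 without replicate 3, and 1306, 1296 and 1303 without knockout replicates 1, 2 and 3. Other settings stayed within 1.5 times: 2724 with median ratio scaling, 2813 with library totals alone, 4009 with the length offset, 3033 with no filter, 2097 at a mean FPKM of at least 1, 3626 with DESeq2 and 2827 with moderation that was not robust. The differences in effect gave 9281 genes against passage 10 and 8648 against passage 5 with voom, and 7204 against passage 5 without wild-type replicate 2. Leaving out 1 library gave 4429 to 7858 and 3367 to 7204 genes.

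Gpx4, at -0.72 (adjusted p = 0.0564), passed the threshold in 10 settings, as -0.72 with all 21 libraries (0.000215), library totals alone (0.0441), no filter (0.0259) and DESeq2 (0.0114), as -0.43 with the length offset (0.0154), -0.28 against replicate 2 alone (8.32e-06), -0.56 with voom (1.03e-06) and -0.67 with the replicate block (0.0462). Leaving out 1 library gave -0.90 to -0.43, with -0.43 without wild-type replicate 1 (0.00687) and -0.90 without replicate 2 (0.0051).

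Same-numbered libraries deviated with correlations of 0.01, 0.08 and -0.01. The knockout libraries differed by little more than counting noise (chi-square per degree of freedom 1.57 to 1.62). These correlations therefore cannot show whether the numbers pair the libraries. The fit with the replicate block called 2264 genes. Among named genes, 18 lost their call with the block, 11 against replicate 2 alone and 5 with the length offset, 41 without wild-type replicate 3, and 44, 45 and 47 without knockout replicates 1, 2 and 3. Genes that turned direction had no call in the main fit or where they turned. Trpm5 turned to 0.21 against replicate 2 alone. Dclk1 turned to 0.16 without wild-type replicate 3 and to 0.04 without knockout replicate 2 (-0.51 to 0.16 over all libraries left out). Cd14 turned to -0.02 without wild-type replicate 2 (-0.02 to 0.28). In other settings these genes did pass. Cd14 passed without wild-type replicate 1 (0.28), with the length offset (0.37) and with voom (0.17), and was 0.40 against replicate 2 alone. Trpm5 and Dclk1 passed with voom, at -1.18 and -0.83. The cause was not tested. With 3 libraries a group and a wide wild-type spread, a gene that did not pass is not shown to be alike in the groups.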
